A study of Homo sapiens with 6 samples.

Results

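Adhesion genes were followed in Raji cells, a human Burkitt lymphoma cell line, with and without raised IRF4, a regulator of B cell activation and of plasma cell formation. The set was a list of 34 named genes, found by their symbols among the 23459 rows of the count table, and all 34 were present. It held 17 integrin alpha subunits, 8 integrin beta subunits, 4 ICAM genes with VCAM1, and the adhesion receptors SELPLG, CD44, CD58 and PECAM1. The IRF4-overexpressing group (3 libraries) received a lentivirus with human IRF4 cDNA, and the control group (3 libraries) the same vector without an insert. Per the labels' protocols, both were infected over 5 days and then kept for 7 days in puromycin at 3 µg/ml, so each is a drug-selected pool of a tumour line. Whether replicates were separate infections is not stated, and the p-values measure only how far these libraries vary, which may be technical variation.

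An integrin is a pair of 1 alpha and 1 beta chain that spans the membrane and links matrix or neighbouring cells to the cytoskeleton. In B cells the pair of ITGA4 and ITGB1 (VLA-4) binds VCAM1 on follicular dendritic and endothelial cells, and the pair of ITGAL and ITGB2 (LFA-1) binds ICAM proteins on T cells and other partners. Both pairs are known to hold B cells in the germinal centre. SELPLG encodes PSGL-1, the main ligand of P-selectin, CD44 binds hyaluronan, and CD58 binds CD2 on T cells.

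With IRF4 raised, 3 of the 34 genes passed the test and all 3 were higher: ITGAM, the alpha chain of Mac-1 (3.78-fold), VCAM1 (2.58-fold) and ITGB5, a beta chain that pairs with ITGAV (2.44-fold). The abundant integrin genes of these cells, ITGB1, ITGA4, ITGB7 and ITGA6, had log2 fold changes of 0.0065 to 0.16, and none passed. Of the 34, 20 had enough counts to be tested, and 14 had too few, CD44 and ICAM3 among them. By edgeR's quasi-likelihood test, 3 of the 20 were higher and 0 lower at an adjusted p under 0.05, where 2.98% and 0.182% of all 12079 genes tested were higher and lower. The other 17 were not called, 4 of them higher at an unadjusted p under 0.05. The share of all genes at an unadjusted p was not counted, so such counts, here and for the related lists, have no background. DESeq2 called 4 of the 20 higher and 0 lower, beside 4.78% and 1.45% of all genes. Without IRF4-overexpressing replicate 1 the count of higher members was 6, with ITGAX, ICAM2 and CD58 added, in a fit that called 19.9% of all genes higher and 25.1% lower, and without any other single library it was 2, ITGAM and VCAM1. The median log2 fold change was 0.33 over the 20 and 0.0073 over all genes tested. A positive one was found in 18 of the 20 and in 6161 of all 12079 genes tested. A gene that passes the count filter through its high group alone has to differ, as ITGAX did here, so these shares describe the 20 and not the 34. In RNA from whole cultures, a change in the number of cells that express a gene and a change in RNA per cell cannot be told apart.

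The libraries held 33588248 to 46210702 counts in the IRF4-overexpressing group and 27681979 to 41510523 in the control group. IRF4 itself averaged 132 ± 15.8 CPM (read counts scaled for library size with TMM factors) in IRF4-overexpressing libraries and 1.25 ± 0.203 CPM in control libraries (SD, n = 3 each). The B cell markers MS4A1, CD79A, CD79B, PAX5 and CD22 had group means of 90.3 CPM (PAX5) to 861 CPM (MS4A1) in IRF4-overexpressing libraries and of 129 CPM (PAX5) to 719 CPM (MS4A1) in control libraries, and none was called. Markers of T and NK, myeloid, platelet and endothelial, epithelial and kidney, and mesenchymal cells, 39 genes in all with 17 at 0 in every library, summed to 7.10 to 12.2 CPM in IRF4-overexpressing libraries and 3.71 to 4.84 CPM in control libraries. The libraries also differed within groups along an axis with 74.3% of the variance around the group means. On one side lay IRF4-overexpressing replicates 2 and 3 (positions -0.396 and -0.345) with control replicate 1 (-0.335). On the other lay control replicates 2 and 3 (0.107 and 0.228) and, well beyond them, IRF4-overexpressing replicate 1 (0.741). The term for the axis records only the side, so that distance remains in the fit with the term and within that side. What produced that axis is not given in the labels. Of all genes, 18.4% were called higher within the side with control replicate 1, 6.99% within the side with IRF4-overexpressing replicate 1, and 5.87% with a term for the axis.

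Among the integrin genes, the chains of VLA-4 and their partners led, and the called genes ITGAM and ITGB5 were of low level. Compared per kilobase of gene width, over all 6 libraries, ITGB1 was the most abundant integrin gene at 68.2 CPM per kilobase (range 63.3 to 73.8). ITGA4 stood at 23, ITGB7 at 19.3 and ITGA6, the alpha chain of laminin receptors, at 18.6, with ranges that overlapped from each to the next. ITGAE, which pairs with ITGB7, followed at 6.11, above ITGAL at 4.09 and ITGAV at 3.97, whose ranges overlapped. ITGB2, the shared beta chain of the leukocyte integrins, was at only 0.745 CPM per kilobase, and ITGAM, ITGA7 and ITGB5 lay lower still at 0.299, 0.231 and 0.215.

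**Figure D1:**
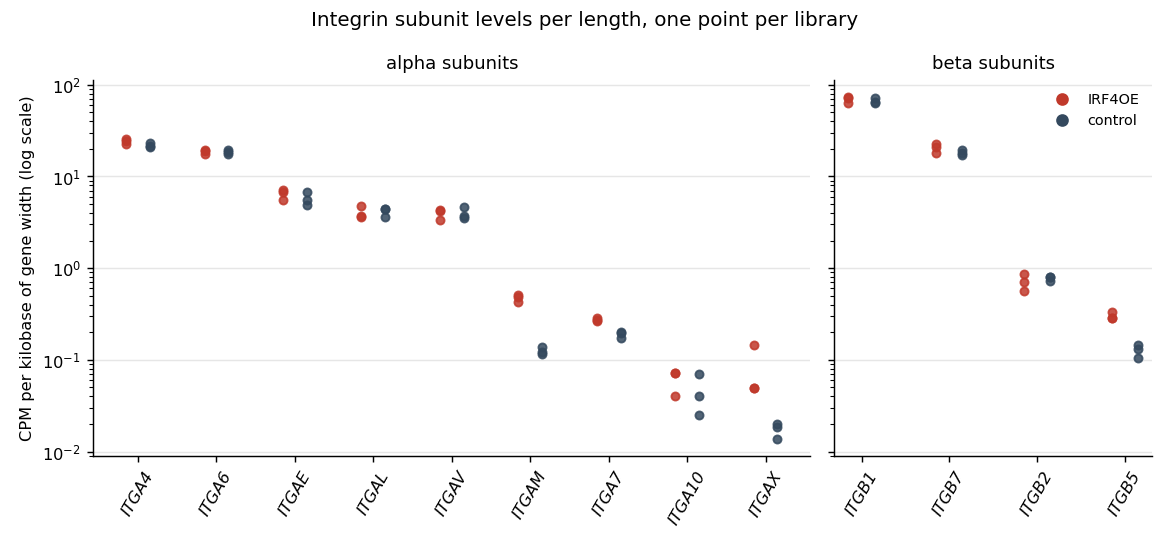
Levels of the 13 tested integrin genes, in TMM-scaled CPM per kilobase of gene width on a log axis, with 1 point per library, IRF4-overexpressing libraries left of control libraries. ITGB1, ITGA4, ITGB7 and ITGA6 lead in both groups. At the low end of the axis the points of ITGAM and ITGB5 separate by group, and so do those of ITGA7 and ITGAX, which were not called. The separation of ITGAX was fixed by the count filter.

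The VLA-4 and ITGB7 chains were close in both groups. ITGA4 had 151, 161 and 168 CPM in IRF4-overexpressing replicates 1, 2 and 3, against 153, 139 and 144 CPM in control replicates 1, 2 and 3. These ranges overlapped, and the log2 fold change was 0.14 (SE 0.088, adjusted p = 0.371 by edgeR). ITGB1 had 259, 292 and 302 CPM in IRF4-overexpressing libraries, against 296, 260.2 and 263 CPM in control libraries, with a log2 fold change of 0.057 (SE 0.10, adjusted p = 0.733 by edgeR). ITGB7, which pairs with ITGA4 in the receptor for the gut addressin MADCAM1, had 66.2, 82.5 and 77.4 CPM in IRF4-overexpressing libraries, against 63.5, 71.7 and 66.7 CPM in control libraries. Its log2 fold change was 0.16 (SE 0.11, adjusted p = 0.406 by edgeR), with 0.32 within the side with control replicate 1, where it was called, and -0.028 within the side with IRF4-overexpressing replicate 1. Per kilobase, the ratio of ITGA4 to ITGB1 was 0.348 ± 0.0111 in IRF4-overexpressing libraries and 0.328 ± 0.00949 in control libraries (SD, n = 3 each).

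The other abundant alpha chains overlapped between the groups as well. ITGA6 had 106, 115 and 117 CPM in IRF4-overexpressing libraries, against 119, 112 and 106 CPM in control libraries. ITGAV, the alpha chain of receptors for vitronectin and other RGD ligands, had 24.4, 30.4 and 31.3 CPM in IRF4-overexpressing libraries, against 33.3, 25.6 and 26.6 CPM in control libraries. In both genes the highest library was control replicate 1, and the edgeR adjusted p was 0.971 for ITGA6 and 0.967 for ITGAV. ITGAE had 22, 28 and 27.1 CPM in IRF4-overexpressing libraries, against 26.6, 19.5 and 21.8 CPM in control libraries (log2 fold change 0.18, SE 0.15, adjusted p = 0.478 by edgeR). For ITGAV and ITGAE, the 3 highest libraries were the 3 on one side of the library axis, IRF4-overexpressing replicates 2 and 3 and control replicate 1.

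Of the leukocyte integrins that use ITGB2, ITGAM alone was called. ITGAM had 92, 83 and 122 counts (2.67, 2.24 and 2.53 CPM) in IRF4-overexpressing libraries, against 29, 17 and 22 counts (0.722, 0.632 and 0.602 CPM) in control libraries. Every IRF4-overexpressing library was more than 3 times as high as the highest control library. The log2 fold change was 1.92 (SE 0.17, adjusted p = 0.00256 by edgeR), and ITGAM was called without each library in turn (1.85 to 2.00, adjusted p 3.17e-04 to 0.0308). Within the side of the library axis with control replicate 1 it was 1.72, and within the side with IRF4-overexpressing replicate 1 it was 2.15.

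ITGAX, which encodes CD11c, a further alpha chain, and is the next gene to ITGAM on chromosome 16, had 27, 10 and 13 counts in IRF4-overexpressing libraries, against 4, 2 and 4 counts in control libraries. The groups did not overlap, but ITGAX passed the count filter through the IRF4-overexpressing libraries alone, so that was fixed once it was tested. Its calls in the fits below carry the same limit. Replicate 1 of the IRF4-overexpressing group stood at 0.785 CPM beside 0.270 and 0.269 CPM in replicates 2 and 3. In the comparison of all libraries ITGAX was not called (log2 fold change 2.11, SE 0.62, adjusted p = 0.147 by edgeR). Without IRF4-overexpressing replicate 1 it was called, at a log2 fold change of 1.44 (adjusted p = 0.0440 by edgeR). It was also called with the axis term (2.46, adjusted p = 0.0253 by edgeR) and within the side with IRF4-overexpressing replicate 1 (3.04, adjusted p = 0.0108 by edgeR), but not within the side with control replicate 1 (1.40, adjusted p = 0.261 by edgeR). ITGAD, the neighbour of ITGAX and a further partner of ITGB2, had 11 and 6 counts in all, over the IRF4-overexpressing and the control libraries. On the other side of ITGAM, among neighbours chosen after the values were seen, PYDC1 had 2 and 0 counts in all, and TRIM72 3 and 0.

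ITGAL and ITGB2, the chains of LFA-1, were not called. ITGAL had 25.1, 18.9 and 19.4 CPM in IRF4-overexpressing libraries, against 18.7, 22.9 and 22.9 CPM in control libraries (log2 fold change -0.026, SE 0.15, adjusted p = 0.923 by edgeR). ITGB2 had 2.82, 2.30 and 1.82 CPM in IRF4-overexpressing libraries, against 2.32, 2.57 and 2.60 CPM in control libraries (log2 fold change -0.11, SE 0.19, adjusted p = 0.716 by edgeR). Per kilobase, ITGAM came to 0.681 ± 0.151 of ITGB2 in IRF4-overexpressing libraries and to 0.162 ± 0.0263 in control libraries (SD, n = 3 each). ITGAL remained the main partner, at 5.73 ± 0.770 times ITGB2 in IRF4-overexpressing libraries and 5.33 ± 0.277 times in control libraries.

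Beside the rise of ITGAM, 9 further myeloid markers were read. S100A9, FCGR3A and MPO had 0 counts in every library, and CD14 had 13 and 6 counts in all in the IRF4-overexpressing and control groups. The 9 summed to 3.38 to 6.34 CPM in IRF4-overexpressing libraries and 2.09 to 2.57 CPM in control libraries, with 0 of the 3 tested called. CSF1R, the receptor of macrophage growth factor, had 140, 45 and 67 counts in IRF4-overexpressing libraries, against 13, 14 and 16 counts in control libraries (adjusted p = 0.0846 by edgeR). Their part in the result for ITGAM was not tested.

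Among the chains outside the leukocyte family, ITGB5 was called. It had 39, 36 and 47 counts (1.13, 0.972 and 0.974 CPM) in IRF4-overexpressing libraries, against 14, 13 and 16 counts (0.349, 0.484 and 0.438 CPM) in control libraries. The groups did not overlap, and the log2 fold change was 1.29 (SE 0.22, adjusted p = 0.0270 by edgeR). The call was kept without IRF4-overexpressing replicate 1 (adjusted p = 0.00783 by edgeR) and lost without each other library. The edgeR adjusted p was 0.101 without IRF4-overexpressing replicate 2, 0.110 without replicate 3, and 0.128, 0.0998 and 0.134 without control replicates 1, 2 and 3, with log2 fold changes of 1.15 to 1.37 over all 6 such fits. Within the sides of the library axis it was 1.46 (side with control replicate 1) and 1.34 (side with IRF4-overexpressing replicate 1), and it was called in the side with control replicate 1 alone (adjusted p = 0.0108 and 0.0650 by edgeR). Its tested neighbours on chromosome 3, UMPS and HEG1, had log2 fold changes of -0.086 and -0.68 and were not called. ITGAV, its partner, was over 10 times more abundant per kilobase and was not called. ITGA7, a laminin receptor chain of muscle, lay between 1.20 and 1.28 CPM in IRF4-overexpressing libraries and between 0.781 and 0.903 CPM in control libraries (log2 fold change 0.51, SE 0.17, adjusted p = 0.177 by edgeR). ITGA10, a collagen receptor chain of cartilage, had 45 counts in all in IRF4-overexpressing libraries and 30 in control libraries and was not called (adjusted p = 0.584 by edgeR).

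The remaining integrin genes gave next to no counts. ITGA2 had 0 in every library, which allows up to 0.0251 CPM in IRF4-overexpressing and 0.0290 CPM in control libraries at 3 counts per group. ITGA1, ITGA8, ITGA11, ITGB6 and ITGB8 had 1 or 2 counts in all in IRF4-overexpressing libraries and 0 in control libraries, and ITGB3 had 1 in each group. ITGA3 had 4 and 4 counts, ITGA5, the fibronectin receptor chain, 4 and 0, ITGB4 1 and 4, and ITGA9 9 and 2, in the IRF4-overexpressing and control groups. These genes had too few counts to be tested, so at this depth a fall or a small rise in them was not detectable. The collagen receptors of ITGA1, ITGA2 and ITGA11 and the platelet chain ITGB3 were at or near this floor in both groups. These intervals and floors cover counting error only.

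VCAM1, the ligand of VLA-4, was the called gene among the immunoglobulin-like members. VCAM1 is known from activated endothelium and follicular dendritic cells, where inflammatory signals induce it. It had 349, 491 and 608 counts (10.1, 13.3 and 12.6 CPM) in IRF4-overexpressing libraries, against 175, 136 and 166 counts (4.36, 5.06 and 4.54 CPM) in control libraries. The lowest IRF4-overexpressing library was about 2 times as high as the highest control library. The log2 fold change was 1.37 (SE 0.14, adjusted p = 0.00472 by edgeR), and VCAM1 was called without each library in turn (1.30 to 1.47, adjusted p 1.08e-04 to 0.0354). Within the sides of the library axis it was 1.56 (side with control replicate 1) and 1.12 (side with IRF4-overexpressing replicate 1). Beside VCAM1, the 8 platelet and endothelial markers summed to 0.405 to 0.552 CPM in IRF4-overexpressing libraries and 0.301 to 0.632 CPM in control libraries. PF4, PPBP, GP9, CDH5 and KDR had 0 counts in every library, and VWF had 50 counts in all in IRF4-overexpressing libraries and 39 in control libraries, ITGA2B 7 and 2, and TEK 2 and 0. Its neighbours on chromosome 1, EXTL2 and CDC14A, had log2 fold changes of 0.46 and 0.35 and were not called (adjusted p by edgeR = 0.224 and 0.187).

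ICAM1, a ligand of LFA-1, was the most abundant of the family and was not called. It had 213, 174 and 166 CPM in IRF4-overexpressing libraries, against 133, 155 and 149.9 CPM in control libraries. The groups did not overlap, but IRF4-overexpressing replicate 1 stood apart, and the log2 fold change was 0.34 (SE 0.12, adjusted p = 0.211 by edgeR). Within the sides of the library axis it was 0.34 (side with control replicate 1) and 0.52 (side with IRF4-overexpressing replicate 1), and ICAM1 was called in both and with a term for the axis (0.42, adjusted p = 0.0124 by edgeR). Since the axis was read from these counts, p-values that use it are too small, and within a side the lone library of a group is assumed to vary like the others. ICAM1 was not called without any single library.

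ICAM2, a further LFA-1 ligand of lymphocytes and endothelium, had 30.3, 42.2 and 39.1 CPM in IRF4-overexpressing libraries, against 30.2, 31.1 and 28.1 CPM in control libraries. IRF4-overexpressing replicate 1 lay within the control range, and the log2 fold change was 0.32 (SE 0.14, adjusted p = 0.262 by edgeR). Without that library it was 0.44, and ICAM2 was called (adjusted p = 0.00441 by edgeR), while within the sides of the library axis it was 0.41 (side with control replicate 1) and 0.075 (side with IRF4-overexpressing replicate 1). ICAM4, an adhesion protein of red cells, had 33, 31 and 39 counts in IRF4-overexpressing libraries, against 30, 8 and 9 counts in control libraries. Control replicate 1 was close to the IRF4-overexpressing level, and the gene was not called (log2 fold change 0.96, SE 0.40, adjusted p = 0.256 by edgeR). Without control replicate 1 the log2 fold change was 1.67 (adjusted p = 0.0776 by edgeR). Within the side with control replicate 1 it was 0.13 (adjusted p = 0.840 by edgeR), and within the side with IRF4-overexpressing replicate 1 it was 1.86 and ICAM4 was called (adjusted p = 0.0329 by edgeR). ICAM3, the ICAM of resting leukocytes, had 13, 5 and 6 counts in IRF4-overexpressing libraries, against 2, 1 and 3 counts in control libraries, too few to test.

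CD58, the ligand of CD2, was higher in every IRF4-overexpressing library without passing the test. It had 17.3, 20.4 and 21.5 CPM in IRF4-overexpressing libraries, against 15.6, 13.9 and 13 CPM in control libraries. The log2 fold change was 0.48 (SE 0.13, adjusted p = 0.120 by edgeR). CD58 passed by DESeq2 (adjusted p = 0.0401), with the term for the axis (log2 fold change 0.40, adjusted p = 0.0314 by edgeR) and when IRF4-overexpressing replicate 1 was left out (0.56, adjusted p = 0.00357 by edgeR), while its adjusted p was 0.157 to 0.415 without any other library. Within the sides of the library axis it was 0.42 (side with control replicate 1) and 0.40 (side with IRF4-overexpressing replicate 1), and called in both. CD2 had 0 counts in every library.

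SELPLG had 3.28, 2.89 and 2.44 CPM in IRF4-overexpressing libraries, against 1.69, 3.20 and 2.82 CPM in control libraries, with control replicate 1 the lowest and the groups overlapping (log2 fold change 0.17, SE 0.25, adjusted p = 0.690 by edgeR). It was called within the side with control replicate 1 (0.64, adjusted p = 0.0348 by edgeR) and not within the other (0.17, adjusted p = 0.663 by edgeR). PECAM1, an adhesion protein of endothelium, platelets and leukocytes, lay between 0.373 and 0.756 CPM in IRF4-overexpressing libraries and between 0.199 and 0.328 CPM in control libraries. It was not called (log2 fold change 0.85, SE 0.40, adjusted p = 0.288 by edgeR). CD44 had 3 counts in all in each group, which is 0.0251 CPM in IRF4-overexpressing libraries (exact 95% Poisson interval 0.00517 to 0.0732) and 0.0290 CPM in control libraries (0.00597 to 0.0846).

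**Figure D2:**
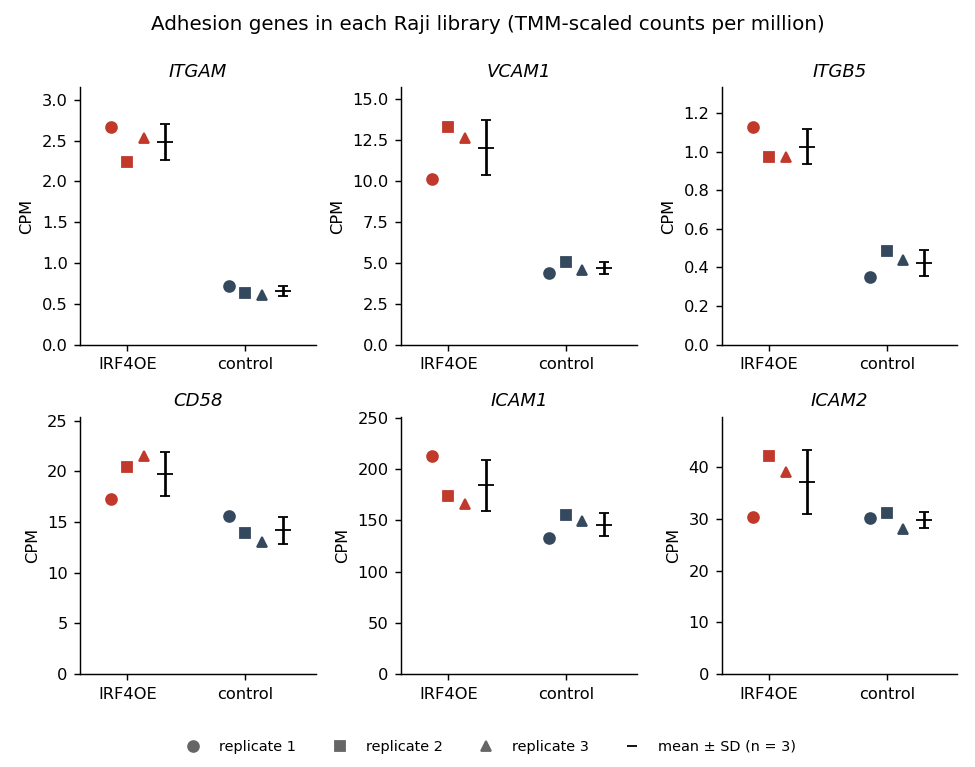
Level of 6 adhesion genes in TMM-scaled CPM, with 1 symbol per replicate and the mean ± SD (n = 3) beside it, IRF4-overexpressing libraries left of control libraries. ITGAM, VCAM1 and ITGB5 separate widely, CD58 and ICAM1 narrowly, and ICAM2 overlaps through IRF4-overexpressing replicate 1 at 30.3 CPM.

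Across the 20 tested genes, every IRF4-overexpressing library lay above every control library in 9, and below in 0. Over all genes tested these shares were 13.5% and 11.9%. The 9 were ITGAM, ITGAX, ITGA7, ITGB5, ICAM1, ICAM4, VCAM1, CD58 and PECAM1, while 3 of the 4 tested beta chains and 3 of the 5 tested leukocyte alpha chains overlapped. ITGAX passed the count filter through the IRF4-overexpressing libraries alone, so its separation was fixed once it was tested. With library sizes alone the median of all genes moved to 0.10 on the log2 scale, and the same 3 genes were called.

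**Figure D3:**
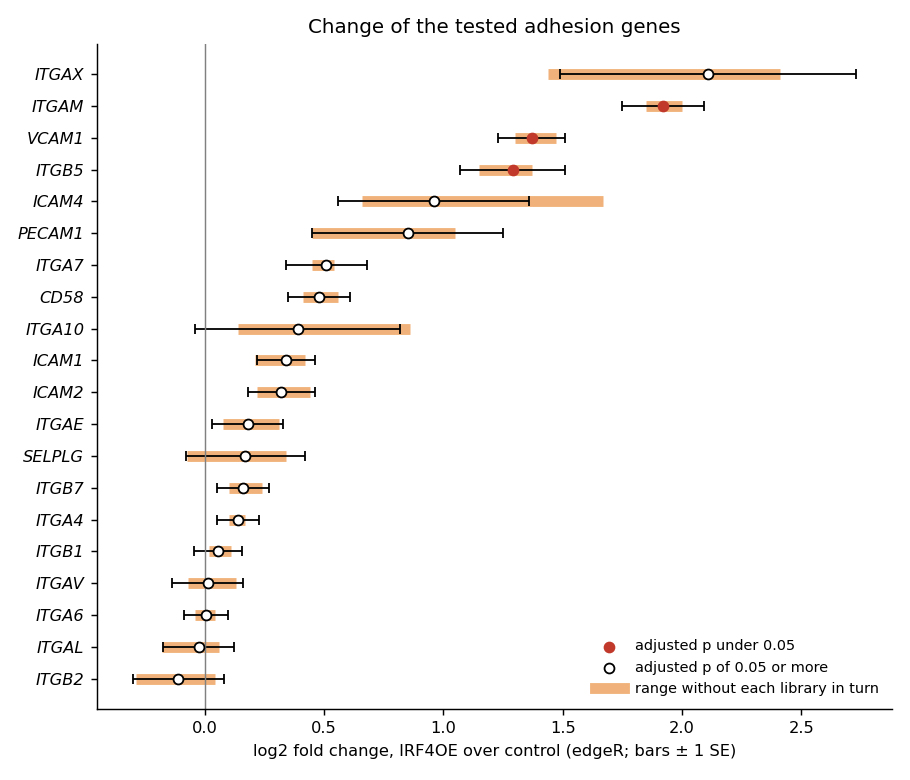
Log2 fold changes (IRF4-overexpressing over control) of the 20 tested adhesion genes from the edgeR fit, with bars of ± 1 SE and, in orange, the range when each library is left out in turn. The filled points, ITGAM, VCAM1 and ITGB5, have an adjusted p under 0.05, and ITGAX is the highest at 2.11 with an SE of 0.62.

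The promoters of the 3 called genes are shown because all 3 were higher in the same libraries, with matches to the motifs searched in capitals. The sequences are RefSeq windows of GRCh38.p14, from 250 bases before to 50 bases after an annotated start, and 22 of the 34 genes had a window, 29 windows in all. The processing notes of the counts name hg19, another build, so the coordinates belong to the windows alone. Both strands were searched for the interferon-stimulated response element core GAAANNGAAA, for the ETS-IRF composite element GGAANNGAAA, and for the NF-kB consensus, the last added after the values were seen. The windows lie at chr1:100719492-100719791 (plus strand) for VCAM1, at chr16:31259725-31260024 (plus strand) for ITGAM, and at chr3:124887635-124887934 (minus strand) for ITGB5, the one of its 3 windows with a match.
VCAM1: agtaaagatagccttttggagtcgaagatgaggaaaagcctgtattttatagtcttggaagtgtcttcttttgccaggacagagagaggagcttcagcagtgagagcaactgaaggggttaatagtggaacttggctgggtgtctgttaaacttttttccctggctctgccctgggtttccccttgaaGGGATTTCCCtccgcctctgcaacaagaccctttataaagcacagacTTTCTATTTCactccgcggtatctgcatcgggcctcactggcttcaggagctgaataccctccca
ITGAM: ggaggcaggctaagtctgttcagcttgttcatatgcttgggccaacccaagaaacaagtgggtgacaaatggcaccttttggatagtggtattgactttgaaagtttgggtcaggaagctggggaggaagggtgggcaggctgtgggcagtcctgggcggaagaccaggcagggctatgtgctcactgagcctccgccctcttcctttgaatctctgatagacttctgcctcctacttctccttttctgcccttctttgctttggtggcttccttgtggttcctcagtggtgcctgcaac
ITGB5: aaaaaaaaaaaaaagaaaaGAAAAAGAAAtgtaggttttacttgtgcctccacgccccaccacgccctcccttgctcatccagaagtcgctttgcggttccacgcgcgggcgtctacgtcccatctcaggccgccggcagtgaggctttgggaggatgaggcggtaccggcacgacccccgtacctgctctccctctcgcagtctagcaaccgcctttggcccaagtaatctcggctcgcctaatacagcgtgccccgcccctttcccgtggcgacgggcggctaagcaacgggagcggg

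In VCAM1, the first run in capitals is an NF-kB match, read on both strands, from base -62 to -53 relative to the start, and the second is the interferon-stimulated core on the opposite strand, from -15 to -6. In ITGB5 the capitals are an interferon-stimulated core from -231 to -222, within a stretch rich in adenine. The ITGAM window held none of these letters. The interferon-stimulated core was present in 2 of the 29 windows of the set and in 3.57% of all 35116 windows, the composite element in 0 and in 2.82%, and the NF-kB consensus in 9 and in 11.3%. Those 9 also came from genes near 0 in both groups, such as ITGA1, ITGA5, ITGA11 and ITGB8. A match is a description of the letters and not evidence of binding.

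The genes around the adhesion receptors were read from 7 lists with 140 genes, of which 78 were tested, and 3 rose and 0 fell. That is 3.85% higher, near the 2.98% of all genes tested. With all 7 lists together the median log2 fold change was -0.077, beside 0.0073 over all genes tested. Of the 78, 32 were positive, beside 6161 of all 12079 genes tested. Without IRF4-overexpressing replicate 1, 15 were called higher and 28 lower, in the fit that called 19.9% and 25.1% of all genes, and without any other single library 2 and 0. Of the called genes, SRGN and TSPAN33 are given in full.

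SRGN, which encodes serglycin, a proteoglycan that CD44 can bind, had 53.4, 86.4 and 78.0 CPM in IRF4-overexpressing libraries, against 23.5, 20.6 and 19.3 CPM in control libraries. The groups were far apart, IRF4-overexpressing replicate 1 was the lowest of its group, and the gene rose 3.43-fold (log2 fold change 1.78, SE 0.19, adjusted p = 0.00535 by edgeR). The 7 other tested genes of the CD44 list were not called, with 1 lower at an unadjusted p under 0.05. TSPAN33, a tetraspanin of activated B cells, had 44.6, 49.8 and 47.7 CPM in IRF4-overexpressing libraries, against 30, 31.8 and 33 CPM in control libraries. It rose 1.5-fold (adjusted p = 0.0204 by edgeR), and lost the call without each library other than IRF4-overexpressing replicate 1 (adjusted p by edgeR = 0.0916 and 0.0859 without replicates 2 and 3 of that group, and 0.0802, 0.0971 and 0.103 without control replicates 1, 2 and 3).

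**Figure D4:**
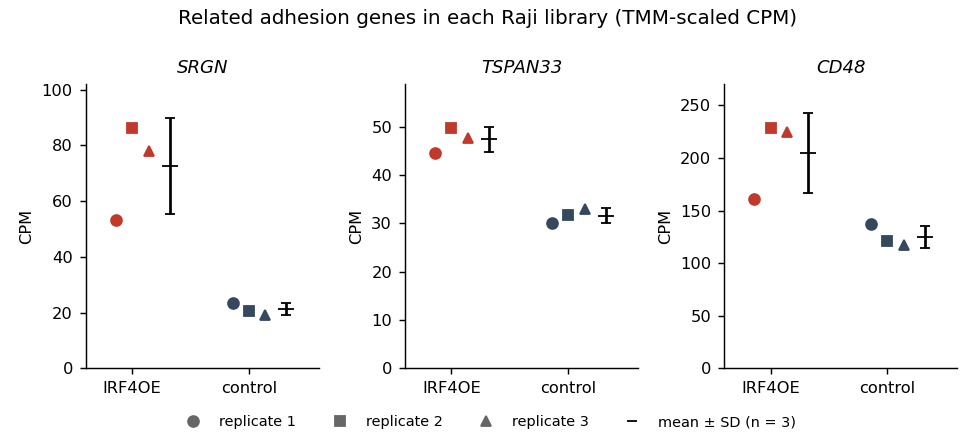
Level of 3 related adhesion genes in TMM-scaled CPM, with 1 symbol per replicate and the mean ± SD (n = 3) beside it, IRF4-overexpressing libraries left of control libraries. SRGN and TSPAN33 separate, and CD48 does so with IRF4-overexpressing replicate 1 (161 CPM) nearest to the control libraries (117 to 137 CPM).

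The signalling genes that switch integrins on or carry their signal were not called in the comparison of all libraries. Of 16 tested genes of inside-out activation, 12 had a negative log2 fold change (median -0.18), beside 5918 of all 12079 genes tested. TLN1, the most negative at -0.62, had 278, 125 and 119.9 CPM in IRF4-overexpressing libraries, against 196, 294 and 313 CPM in control libraries. It was lowest in the libraries on the side of control replicate 1, as were RAP1A, RAPGEF1 and FLNA. Only in RAP1B did every IRF4-overexpressing library lie below every control library. The part of the library axis in this lean was not tested. The groups overlapped in 14 of the 16, with 1 above and 1 below, where 13.5% and 11.9% of all genes tested lay above and below. The smallest p-values of that list were those of RASGRP3, an activator of RAP1 in B cells (0.42, SE 0.11, adjusted p = 0.103 by edgeR), and RAP1B, the small GTPase that turns integrins on (-0.31, SE 0.12, adjusted p = 0.220 by edgeR). Of 19 tested genes of focal adhesion signalling, the adaptors CRKL and NEDD9 had log2 fold changes of -0.31 and 0.28 (adjusted p by edgeR = 0.148 and 0.166). At an unadjusted p under 0.05, 1 and 1 of the first list and 1 and 2 of the second were higher and lower. RASGRP3 was called by DESeq2 (adjusted p = 0.0282), with the axis term (adjusted p = 0.0191 by edgeR) and within both sides of the axis (0.39 and 0.33). All 4 named genes were called without IRF4-overexpressing replicate 1, with log2 fold changes of 0.48 (RASGRP3), -0.44 (RAP1B), -0.40 (CRKL) and 0.26 (NEDD9). CRKL was also called with the axis term (-0.28) and NEDD9 within both sides (0.24 and 0.35), while RAP1B and CRKL were called within the side with control replicate 1 (-0.46 and -0.37) and not within the other (-0.050 and -0.16).

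Of 25 other immunoglobulin-like and cadherin genes, 8 were tested and 0 called, with 4 higher at an unadjusted p under 0.05. No cadherin of this list had enough counts to be tested. CDH1 had 54 counts in all in IRF4-overexpressing libraries and 5 in control libraries, CDH17 had 1 in each group, and CDH2 and CDH5 had 0. CD48, a ligand of CD2 and CD244, had 161, 229 and 225 CPM in IRF4-overexpressing libraries, against 137, 121 and 117 CPM in control libraries (log2 fold change 0.71, SE 0.15, adjusted p = 0.0670 by edgeR). F11R, a junctional adhesion molecule that LFA-1 binds, had a log2 fold change of 0.45 (adjusted p = 0.165 by edgeR). Both were called without IRF4-overexpressing replicate 1 (adjusted p by edgeR = 1.86e-04 and 9.31e-04). CD48 was also called by DESeq2 (adjusted p = 0.00278), with the axis term and within both sides (0.72 and 0.47), and F11R within the side with control replicate 1 (0.49) but not within the other (0.21). Of 26 matrix and soluble ligand genes, 6 were tested and 0 called. COL1A1 had 129, 44 and 81 counts in IRF4-overexpressing libraries, against 19, 30 and 31 counts in control libraries (log2 fold change 1.46, adjusted p = 0.192 by edgeR). Without IRF4-overexpressing replicate 1 the log2 fold change was 0.87, and COL1A1 was called with the axis term (1.83) and within both sides (1.6 and 1.99). The 6 mesenchymal markers, COL1A1 among them, summed to 1.67 to 4.16 CPM in IRF4-overexpressing libraries and 0.598 to 1.12 CPM in control libraries. COL1A2 and COL3A1 had 0 counts in every library, LUM had 36 in all in IRF4-overexpressing libraries and 3 in control libraries, PDGFRB had 12 and 1 in these groups, and DCN 1 and 2. Their part in the values of COL1A1 was not tested. TGFB1 had 60, 21.1 and 18.9 CPM in IRF4-overexpressing libraries, against 36.6, 58.9 and 65.4 CPM in control libraries, lowest in the 3 libraries on the side of control replicate 1 (log2 fold change -0.69, SE 0.47, adjusted p = 0.404 by edgeR). Without IRF4-overexpressing replicate 1 it was -1.43 and TGFB1 was called (adjusted p = 0.00132 by edgeR), and within the sides it was -0.88 (side with control replicate 1, called) and -0.019 (side with IRF4-overexpressing replicate 1).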

How the data were processed

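The 6 Raji RNA-seq libraries were made with a stranded mRNA kit, per the labels' protocols. The deposited table gives raw read counts per Entrez gene, 1 column per library, with no scaling, as its whole-number values show. Its gene width column was used for levels per kilobase alone. The builds hg19 and mm9 are listed in the submitters' processing notes. The columns named WT were matched to the empty-vector samples by cell line and replicate number. Aligner, counter, annotation and strandedness of counting are not given in the sources used here, so reads of overlapping or antisense genes cannot be told apart. Of 23459 identifiers, 23308 matched a symbol in RefSeq's GRCh38.p14 table, and 151, with 0.122% of the counts, stayed in the tests. Depth is given with the results.

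Differences were fitted in edgeR 4.0.16 under R 4.3.3 on TMM-scaled libraries after filterByExpr, with group as the only term. Two-sided p-values of its quasi-likelihood test were adjusted by Benjamini-Hochberg over 12079 genes and called at 0.05. The fit was first tested on simulated data. SEs were derived from the F statistic. Alternatives included DESeq2 1.42.0 and limma-voom (limma 3.58.1), and figures were drawn with matplotlib 3.10.9. The members, lists and tests were chosen with earlier results of these data known. Values by library are given for members that were called in any fit or had a mean of at least 10 CPM, and related genes are named if called, or as the 2 with the smallest p of a list with no call. Exact Poisson intervals are at 95%, and the floor is 3 counts over a group. Libraries of a group differed beyond counting noise (chi-square per gene of 6.5 to 184.7), so each counted as 1 sample. Of the related lists, 1 called gene is not reported here.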

Additional observations from a re-analysis of the deposited data

How the results depend on the processing

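The calls of ITGAM, VCAM1 and ITGB5 were kept with median-ratio size factors, library sizes alone, both other filters, DESeq2, limma-voom, the axis term and without IRF4. The replicate numbers did not pair the libraries (correlations of deviations -0.649, -0.219 and -0.467), and with the replicate block 0 members, 0 related genes and 3 genes in all were higher and 0 lower. Higher members numbered 6 with the axis term, 8 within the side with control replicate 1 (ITGB7, ICAM1, ICAM2, SELPLG and CD58 added), 6 within the side with IRF4-overexpressing replicate 1 (ITGAX, ICAM1, ICAM4 and CD58 added, ITGB5 lost), and 2 to 6 without single libraries. Higher related genes numbered 5 with DESeq2, 8 with the axis term, 20 and 12 within the sides and 2 to 15 without single libraries, and lower ones 4 with the term, 26 and 1 within the sides and 0 to 28 without single libraries. Of all genes, 577 were higher and 175 lower with DESeq2, 709 and 389 with the term, 2309 and 3118 and then 858 and 402 within the sides, 120 to 2436 and 3 to 3071 without single libraries, and 13 lower with library sizes alone. Each upper end came without IRF4-overexpressing replicate 1, which leaves both libraries of its group on one side of the axis. The causes were not tested.

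Sign changes were found in uncalled members. ITGAL was at 0.068 with library sizes alone, 0.082 with the term, 0.021 and 0.17 within the sides, and -0.18 to 0.059 without single libraries. ITGA6 was at -0.0053 with median-ratio factors, -0.011 with no filter, -0.0052 with DESeq2, -0.037 with the term, -0.042 and -0.0059 within the sides, and -0.039 to 0.041 without single libraries. ITGAV was at -3.1e-04, -0.0079, -4.6e-04, -0.10, -0.12, -0.062 and -0.069 to 0.13 in the same order. ITGB1 was at -0.0060 with the term and -0.0044 within the side with control replicate 1, where ITGA10 was at -0.28. Within the other side ITGB2 was at 0.16 and ITGB7 at -0.028. Without single libraries ITGB2 ran from -0.29 to 0.045 and SELPLG from -0.073 to 0.34.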
